A study of Mus musculus with 4 samples.

Results

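Transcripts of the genes for proteins of the cytosolic ribosome were examined in mouse LSK cells with and without a mutant Asxl1 allele. Members were taken by symbol: names that start with Rpl or Rps and a digit, with Rplp0, Rplp1, Rplp2 and Rpsa, and without the Rps6k kinases and Rps27a. This gave 66 of the 13749 genes in the deposited table, and 78 of its 18691 RefSeq transcripts. By function, 33 encode proteins of the large subunit and 22 of the small subunit, 5 are paralogs, 5 have symbols of processed pseudogenes, and 1, Rps19bp1, encodes a protein that binds Rps19. Of 46 large subunit and 30 small subunit genes written down as the expected set, the others, Rplp2 and Rpl11 among them, are not analysed here.

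LSK cells (lineage-negative, Sca-1+, Kit+) are the bone marrow fraction that holds the hematopoietic stem cells and multipotent progenitors. They were sorted from C57BL/6 mice aged 8 weeks, 8 of them Asxl1+/+ (WT) and 8 Asxl1G643fs/+ (KI), which carry a frameshift in 1 copy of Asxl1, a chromatin regulator mutated in myeloid malignancy. The comparison asks what 1 mutant allele changes in these cells. Total RNA gave 4 libraries, of which WT-1 and KI-1 carry the number 1 and WT-2 and KI-2 the number 2; the labels do not say whether they came from separate animals or pools, and p-values thus cover only the spread between libraries, of which part or all may be technical.

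A eukaryotic ribosome joins a small subunit, which reads the mRNA, to a large subunit, which forms the peptide bond. Their proteins are made in balanced amounts, and their mRNAs begin with a 5′ terminal oligopyrimidine (TOP) tract through which mTORC1 signalling and LARP1 set their translation. Hematopoietic stem cells keep protein synthesis low, and loss of 1 copy of one of several ribosomal protein genes causes Diamond-Blackfan anemia in humans.

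The 5′ ends that give TOP mRNAs their name are shown first, since they are the sequence feature that the members are known for. In the RefSeq promoter table for GRCm38.p6, 48 of the 66 members had an entry, and 30 bases around each start were searched on the strand of the gene for a run of at least 6 bases made only of C and T and starting with C. Such a run was found in 24 of the 48 (50%), against 25.5% of 27025 genes in the table. On the other strand the same search found 5 of the 48 (10.4%), against 28.6% of all genes. The windows below run from 15 bases before the annotated start to 15 bases from it, with the run in capitals, for genes described further on. A run could lie anywhere in the window, also before the annotated start as in the second Rpl19 window. The counts therefore do not show a tract at the 5′ end of the mRNA. The Rps10 and Rps27 windows show long runs, the Rpl26 window and the upstream Rpl19 window show none, and the second windows of Rpl19 and Rps24 show how the match depends on which start is annotated.
Rps10, chr17:27635230-27635259, minus strand: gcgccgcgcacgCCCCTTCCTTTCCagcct
Rps27, chr3:90213634-90213663, minus strand: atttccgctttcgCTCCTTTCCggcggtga
Rpl22l1, chr3:28805493-28805522, plus strand: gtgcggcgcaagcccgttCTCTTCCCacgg
Rps24, chr14:24490663-24490692, plus strand: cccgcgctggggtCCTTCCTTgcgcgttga
Rps24, chr14:24490738-24490767, plus strand: tccggcgccgtagccatcatggtgagtctc
Rpl26, chr11:68901551-68901580, plus strand: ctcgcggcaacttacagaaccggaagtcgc
Rpl19, chr11:98026695-98026724, plus strand: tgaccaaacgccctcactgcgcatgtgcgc
Rpl19, chr11:98026909-98026938, plus strand: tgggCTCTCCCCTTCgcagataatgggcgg

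Ribosomal protein mRNAs were among the most abundant of these cells. Values are FPKM as the authors deposited them (fragments scaled by the length of the transcript and the size of the library), summed per gene. Where a genotype is given with a pair of values, the library numbered 1 comes first. All 66 members reached the mean FPKM of 1 over the 4 libraries that was asked of genes entering the tests, with means from 1.19 for Rps19-ps3 through a median of 819 to 3641 for Rps24. Rps24, at chromosome 14, 24490678 to 24496960 (GRCm38), had the highest mean of all genes in the table, and 33 of the 50 highest genes were members. The small subunit genes Rps4x and Rps3a1 and the large subunit gene Rpl41 were also among the 5 highest members. The canonical genes (33 large and 22 small subunit genes) had a median of 1072 FPKM, the paralogs 44.3 and the pseudogenes 3.27.

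The lowest values among the canonical genes rest on the transcripts listed. Rpl22 averaged 1.76 FPKM over its transcripts NM_001277113 and NM_001277114, and Rpl19 was listed as 1 transcript, NM_001159483. Their other transcripts are not analysed here, so these values are not the level of the whole gene. Ribosomal protein genes also have many near-identical processed copies in the genome, and no source used here states how reads were shared between copies, so levels of paralogs and pseudogenes are uncertain.

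**Figure D1:**
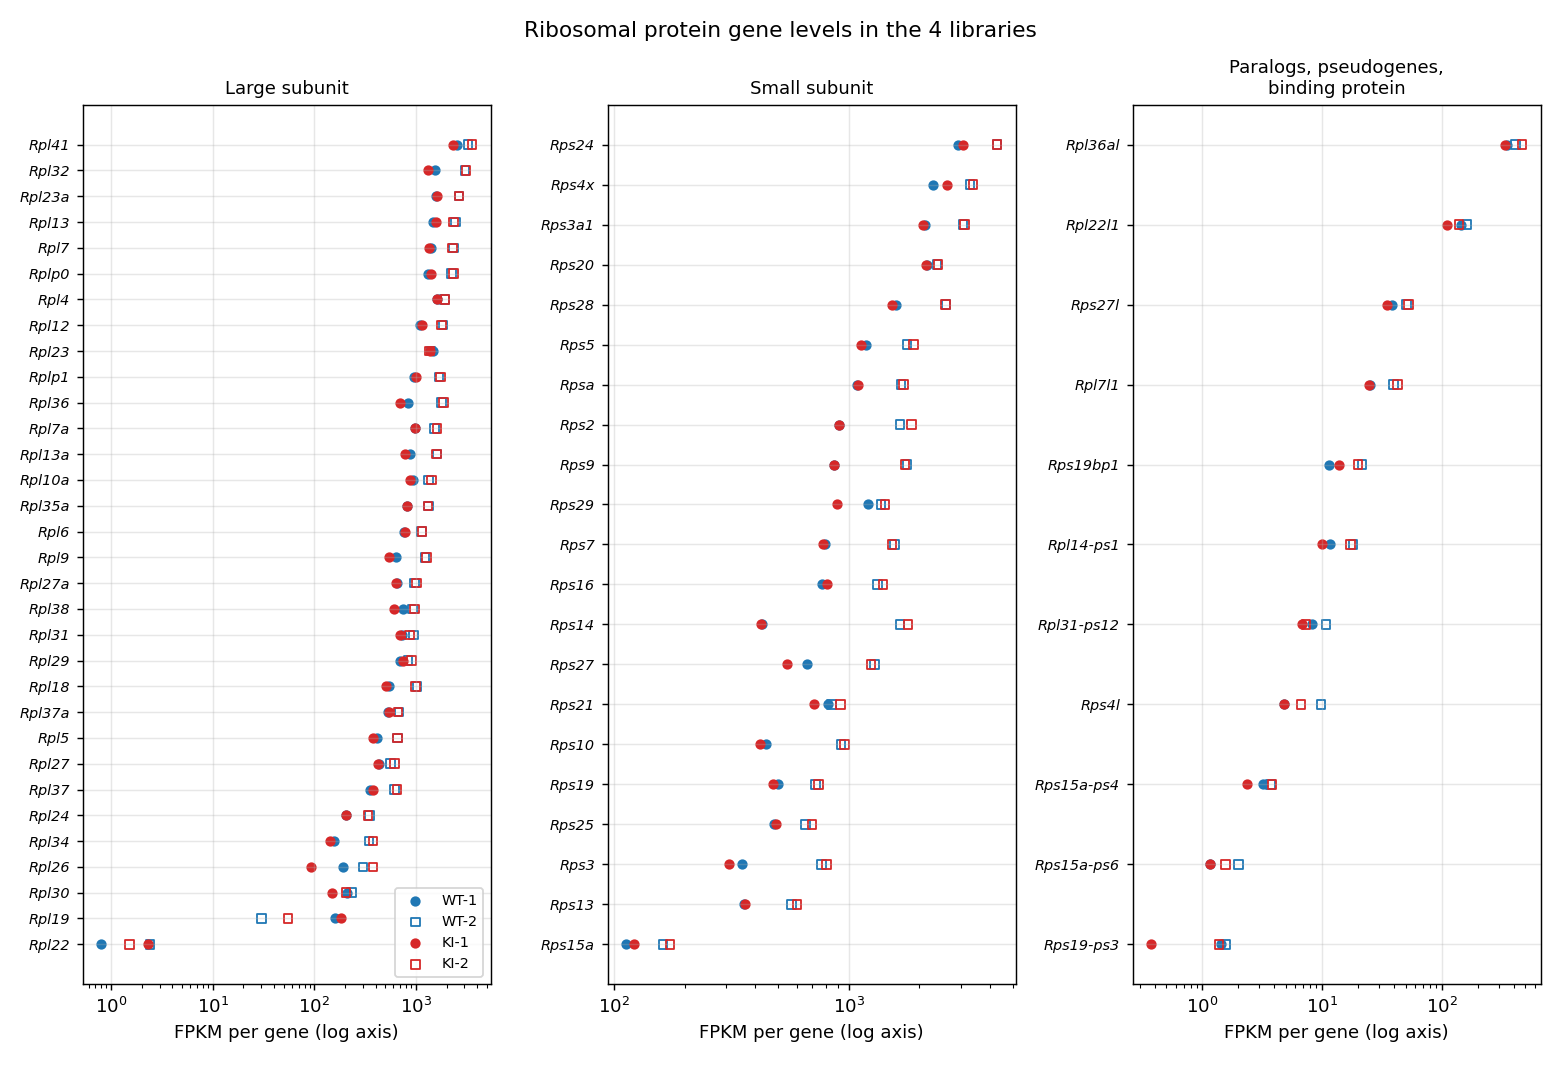
FPKM per gene (log axis) of the ribosomal protein genes reported here in the 4 libraries, by subunit, with WT in blue and KI in red, libraries numbered 1 as filled circles and libraries numbered 2 as open squares. In most rows the symbols pair by library number and not by genotype, as for Rps14 (429 and 422 FPKM in WT-1 and KI-1, 1652 and 1787 in WT-2 and KI-2).

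As a whole, the members took close to the same share of the listed FPKM in both genotypes when libraries of one number were compared. They held 15.5% of the listed FPKM in WT-1 and 15.8% in KI-1, and 19.96% in WT-2 and 19.94% in KI-2. KI minus WT was thus 0.264 percentage points in number 1 and -0.0205 in number 2, with a difference of the group means of 0.122. The gap between the libraries of one genotype was larger, and leaving out a single library moved the KI minus WT difference to between -2.09 points (without WT-1) and 2.33 points (without WT-2), with 2.19 without KI-1 and -1.95 without KI-2. In bulk RNA, fewer cells of a type and less RNA per cell cannot be told apart.

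No member passed the test between KI and WT. With limma on log2(FPKM + 1), genotype as the only term and Benjamini-Hochberg adjustment over 11083 genes at 0.05, 0 of the 66 were called, against 0% of all genes tested. At an unadjusted p under 0.05 the count was 0 of 66, against 47 of 11083 genes (0.424%). Standard errors of the members ran from 0.238 for Rpl31-ps12 to 0.882 for Rps14 on the log2 scale, and the spread they rest on includes the difference between libraries numbered 1 and 2. The count of 0 therefore does not show that the members were alike in KI and WT.

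The median log2 fold change (KI minus WT) was -0.0047 over the 66 members and 0.0075 over all genes tested. Within number 1 the member median was -0.0252 and within number 2 it was 0.0308. Across numbers, KI-1 minus WT-2 gave a median of -0.63 and KI-2 minus WT-1 a median of 0.63, where all genes gave -0.26 and 0.27. The sign of the median therefore followed which number stood on which side, and leaving out 1 library moved it to -0.30 without WT-1, 0.31 without WT-2, 0.33 without KI-1 and -0.33 without KI-2.

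Within numbers the members lay close to 0. KI and WT differed by less than 0.2 on the log2 scale in both numbers for 47 of the 66 members (71.2%), against 51.9% of all genes, and for 44 of the 55 canonical genes (80%). All genes are no like background, with a median level of 11.8 FPKM against 819 for the members. Among the gene lists described further on, the share was 100% for Rps27a and Fau, 85.7% for elongation factors and 81.8% for other TOP mRNAs. It was 81.25% for TOP regulators, 76.7% for initiation factors, 58.1% for mitochondrial ribosomal protein genes and 50% for dedicated chaperones. A total of 14 members were higher in KI in both numbers, against 28.7% of all genes, 17 were lower in both, against 25.5%, and 35 moved opposite ways. Over the 66 members, the KI minus WT differences of number 1 and number 2 had a Spearman correlation of 0.0347, as a description over genes that share libraries. The 2 KI values lay entirely below the 2 WT values for 5 members, 7.58% of the 66 against 7.06% of all genes, namely Rpl22l1, Rpl23, Rpl30, Rpl31-ps12 and Rps19-ps3, and entirely above for 0 (all genes 6.39%).

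**Figure D2:**
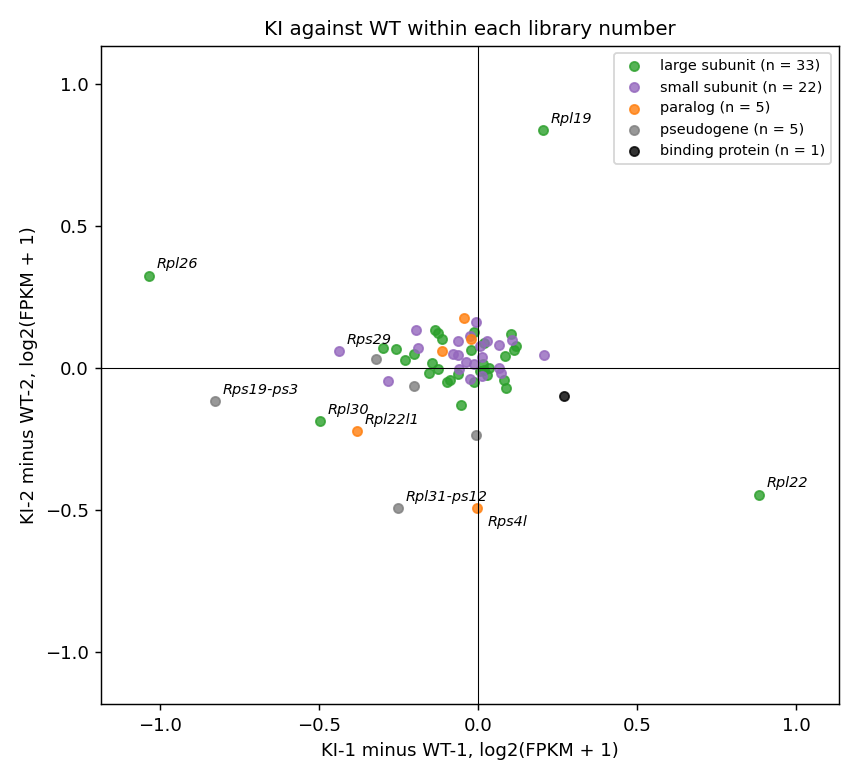
KI minus WT on the log2(FPKM + 1) scale in libraries numbered 1 (x axis) and in libraries numbered 2 (y axis), 1 point per ribosomal protein gene, coloured by class. Most points lie within 0.2 of the origin, and Rpl26, Rpl19, Rpl22 and Rps19-ps3 lie farthest out.

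Large and small subunit genes had medians near each other in KI against WT. The median log2 fold change was -0.0017 over the 33 large subunit genes and 0.0080 over the 22 small subunit genes, a difference of -0.0097, with -0.0035 in number 1 alone and -0.031 in number 2 alone. Leaving out a library gave -0.0291 without WT-1, -0.0071 without WT-2, -0.0197 without KI-1 and 0.0200 without KI-2. In summed FPKM, the large subunit genes stood at 1.13 and 1.11 times the small subunit genes in WT and at 1.10 times in each KI library. Of the large subunit genes 8 were higher in KI in both numbers and 8 lower in both. Of the small subunit genes 6 were higher and 3 lower in both (all genes 28.7% and 25.5%).

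Among large subunit genes, Rpl30, which encodes a protein at the subunit interface and lies at chromosome 15, 34440505 to 34443276, had values that did not overlap. It stood at 209 and 232 FPKM in the WT libraries and 148 and 204 in the KI libraries. The lowest WT and the highest KI value were close, and the means were 220.7 ± 16.0 for WT and 175.9 ± 39.4 for KI (SD, n = 2), with a log2 fold change of -0.34 with SE 0.27 and an adjusted p of 1 in limma. It was -0.11 without KI-1 and -0.57 without KI-2. Rpl23 stood at 1453 and 1398 FPKM in WT and 1368 and 1358 in KI, so that its groups were apart by a narrow margin.

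Rpl26, which encodes a protein near the exit of the nascent chain tunnel, had the largest KI minus WT difference of all members in number 1. It stood at 190 and 301 FPKM in the WT libraries and 92.4 and 378 in the KI libraries. KI was at 48.6% of WT in number 1 and at 125% in number 2, so the groups overlapped and the direction differed between numbers. The log2 fold change was -0.35 with SE 0.66 (limma, adjusted p of 1), and without KI-1 it was 0.66.

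Rpl19, another protein of the tunnel exit region, was the member with the smallest unadjusted p in the higher direction. Its listed transcript stood at 160 and 30.3 FPKM in the WT libraries and 185 and 54.9 in the KI libraries, higher in KI in both numbers but with groups that overlapped. The log2 fold change was 0.52 with SE 0.87 (limma, adjusted p of 1), and it became -0.66 without WT-2 and -0.34 without KI-1. Rpl29 (691 and 832 FPKM in WT and 742 and 904 in KI) and Rpl37 (349 and 615 FPKM in WT and 379 and 648 in KI) were higher in KI by 0.08 to 0.12 on the log2 scale in each number.

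The stalk of the large subunit recruits the GTPases of translation through Rplp0, its partner Rplp1 and the neighbouring Rpl12. Rplp0 stood at 1310 and 2233 FPKM in WT and 1415 and 2330 in KI, and Rplp1 at 945 and 1693 FPKM in WT and 1002 and 1743 in KI. Both were slightly higher in KI in each number, while Rpl12 (1094 and 1842 FPKM in WT and 1158 and 1788 in KI) was higher in number 1 and lower in number 2. Rpl5, which forms the 5S ribonucleoprotein that can inhibit Mdm2, stood at 416 and 661 FPKM in WT and 381 and 659 FPKM in KI.

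Among the highest small subunit genes, Rps24 and Rps3a1 were near level between genotypes within each number. For Rps4x, KI was at 115% of WT in number 1 and at 103% in number 2. Rps24 stood at 2929 and 4289 FPKM in the WT libraries and 3062 and 4283 in the KI libraries. Rps4x stood at 2280 and 3288 FPKM in WT and 2631 and 3395 in KI, and Rps3a1 at 2123 and 3073 in WT and 2067 and 3120 in KI. The log2 fold changes of these 3 genes lay between -0.0084 (Rps3a1) and 0.126 (Rps4x), each with an SE of about 0.5, and Rps15a, much lower at 113 and 162 FPKM in WT and 121 and 173 in KI, had 0.103 with SE 0.31.

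Genes whose human counterparts are mutated in Diamond-Blackfan anemia gave 12 listed members of the 15 written down. Of these 0 were called, 0 were higher in KI in both numbers (all genes 28.7%), 4 were lower in both (all genes 25.5%) and 8 moved opposite ways. Their median log2 fold change was -0.0235. Rps29 stood at 1211 and 1370 FPKM in WT and 895 and 1428 in KI, and Rps27 at 664 and 1289 FPKM in WT and 546 and 1247 in KI. For both, KI-1 was the lowest of the 4 libraries and WT-2 and KI-2 were close to each other. Rpl27 (429 and 562 FPKM in WT and 425 and 613 in KI) differed little between genotypes, and Rps24 and Rpl26, described above, belong to the same list.

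Of the 5 paralogs, Rpl22l1 had the smallest unadjusted p. It encodes a close relative of Rpl22 and lies at chromosome 3, 28805508 to 28807424. It stood at 145 and 163 FPKM in the WT libraries and 112 and 139 in the KI libraries, so that both KI values lay below both WT values. Means were 154.1 ± 12.3 for WT and 125.4 ± 19.6 for KI (SD, n = 2), with a log2 fold change of -0.30 with SE 0.24 and an adjusted p of 1 in limma. It was -0.14 without KI-1 and -0.46 without KI-2. In the authors' deposited table it had the smallest adjusted p of all member transcripts, 0.102. Rpl22 itself, over the listed transcripts, stood at 0.798 and 2.42 FPKM in WT and 2.32 and 1.51 in KI, with opposite directions in the numbers.

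Of the other paralogs, Rps4l was lower in KI in both numbers and the rest had opposite directions in the numbers. Rpl36al, a relative of Rpl36a, stood at 352 and 415 FPKM in WT and 341 and 469 in KI, and Rpl7l1 at 25.3 and 39.7 FPKM in WT and 24.9 and 42.7 in KI. Rps27l, known as a p53 target, stood at 38.3 and 50.7 FPKM in WT and 35.3 and 52.8 in KI. Rps4l, which RefSeq annotates as a transcribed pseudogene, stood at 4.82 and 9.85 FPKM in WT and 4.81 and 6.71 in KI. Rps19bp1, whose product binds Rps19 and the deacetylase Sirt1, stood at 11.4 and 21.5 FPKM in WT and 14.0 and 20.1 in KI.

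The 5 genes with pseudogene symbols had a median log2 fold change of -0.144, and 4 of them were lower in KI in both numbers, against 25.5% of all genes. For Rps15a-ps6, 1 of these 4, the difference in number 1 was only -0.0075 on the log2 scale. Rpl31-ps12, annotated by RefSeq as protein coding, stood at 8.26 and 10.8 FPKM in WT and 6.78 and 7.36 in KI. Rps19-ps3 stood at 1.44 and 1.58 FPKM in WT and 0.375 and 1.38 in KI, with KI-1 far below the other libraries. Rps15a-ps4 (3.20 and 3.71 FPKM in WT and 2.36 and 3.82 in KI) and Rps15a-ps6 (1.17 and 2.01 FPKM in WT and 1.16 and 1.56 in KI) were as low, and none of the 5 was called (each with an adjusted p of 1 in limma).

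Transcripts of Rps24 gave a second view of the most abundant gene, and this view was chosen after its values were seen. Rps24 ends in alternative ways through an 18-base exon, chr14:24494052-24494069, and a 20-base exon, chr14:24495430-24495449, which lie between its last exon and the one before. Transcript NM_207634 skips both and ends at a stop codon in the last exon (24495784 to 24495786). NM_011297 holds the 20-base exon, whose first 3 bases are its stop codon, and NM_207635 holds both, with its stop codon inside the 18-base exon (24494055 to 24494057). The transcripts differ in their 3′ ends too: the last exon of NM_207634 is annotated with 1185 bases (24495775 to 24496959) and that of the other 2 with 71 (24495775 to 24495845). The FPKM and share of NM_207634 therefore cover both the skipping and the long 3′ end, which cannot be told apart in these values. The sequences, read from the GENCODE transcripts for GRCm38 on the plus strand, are shown because the 3 coding sequences end in them: the short exon in capitals with 5 bases on each side, and for the skipping transcript the last exon in capitals.
Rps24 20-base exon: aaaagTGAGTGGAGATTGGATACAGccaaa
Rps24 18-base exon: aaaagAAATGAAATACCTAGCAGtgagt
Rps24 skipping junction: ggtgctggcaaaaagCCAAAGGAGTAGATC

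The skipping transcript held a larger share of Rps24 in KI within each number. NM_207634 stood at 1442 and 1536 FPKM in the WT libraries and 1700 and 1930 in the KI libraries, the highest 2 values being those of KI. It made up 49.2% of the Rps24 FPKM in WT-1 and 55.5% in KI-1, and 35.8% in WT-2 and 45.1% in KI-2. KI was thus 6.27 percentage points above WT in number 1 and 9.24 points above it in number 2, but the groups overlapped, at 42.5% ± 9.50 in WT and 50.3% ± 7.40 in KI (SD, n = 2). The share was also lower in libraries numbered 2 in both genotypes.

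The transcripts with the short exons make up the rest of the gene. NM_011297 made up 43.1% and 54.4% in WT against 38.6% and 47.6% in KI, and NM_207635 made up 7.69% and 9.82% in WT against 5.85% and 7.32% in KI. In limma over 13826 transcripts, NM_207634 had a log2 fold change of 0.28 with SE 0.36 and an adjusted p of 1, and 0 transcripts were called. A permutation test of 2 against 2 libraries cannot give a p below 0.333. The mean difference in share was 7.75 points, and it was 14.5 without WT-1, 1.04 without WT-2, 2.52 without KI-1 and 13.0 without KI-2. From the authors' normalized log2 values turned linear, the share was 43.9% and 41.7% in WT against 48.4% and 50.4% in KI, so that on that scale the groups did not overlap. How many other transcripts were apart on that scale was not counted. Limma on the authors' log2 values took the highest transcript of each gene. There 28.7% of all genes had an unadjusted p under 0.05, against 0.424% on FPKM summed per gene.

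**Figure D3:**
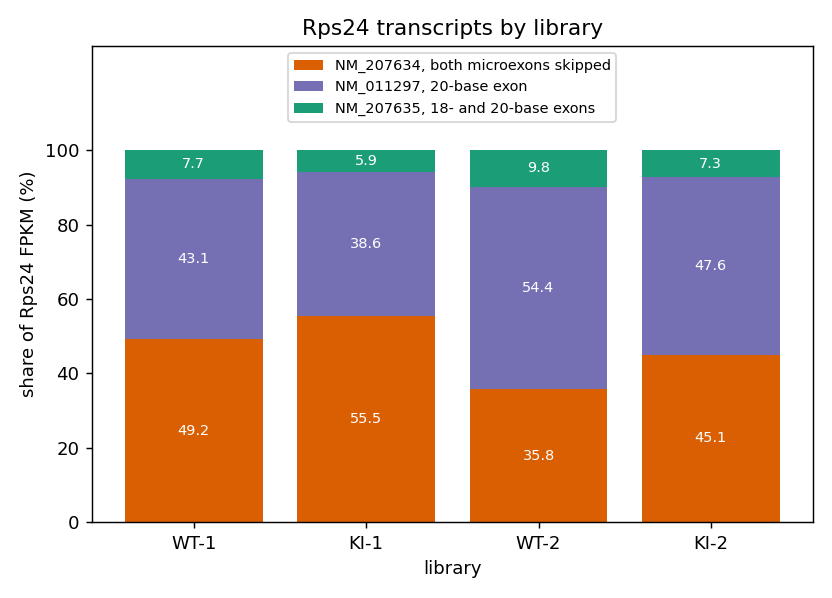
Share of the Rps24 FPKM (%) held by each of its 3 transcripts in the 4 libraries, ordered by library number. The transcript that skips both short exons (bottom) stands at 49.2% in WT-1 against 55.5% in KI-1 and at 35.8% in WT-2 against 45.1% in KI-2.

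The same count was taken over all genes, the members included. Of 7423 transcripts in genes with several listed transcripts, 14.7% moved by at least 5 points the same way in both numbers, and among the members this held for 3 of 20 transcripts in 8 genes. Among 13 transcripts of genes at or over the median level of the members, 1 did (7.69%), the Rps24 transcript itself. These 13 include the transcripts of Rps24, Rpl35a and Rps27, so they are no separate background for the Rps24 shift. The other 2 member transcripts were those of Rpl30, where NM_001163485 went from 66.2% in WT-1 to 60.6% in KI-1 and from 74.8% in WT-2 to 68.2% in KI-2. A smaller shift was seen for Rpl35a, whose transcript NM_001130484 held 10.8% and 9.79% in WT against 8.17% and 7.96% in KI.

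The larger difference in these genes lay between the libraries numbered 1 and 2. What the number stands for is not stated in the labels. In limma on the 4 libraries with the number as the only term, 54 of the 66 members were called, against 40.2% of all genes, and 53 of them were higher in number 2, against 35.6% of all genes. The median log2 difference (number 2 minus number 1) was 0.64 over the members and 0.27 over all genes tested. Both subunits shared it: 28 of 33 large subunit genes and 19 of 22 small subunit genes were called higher, with medians of 0.67 and 0.65. The counts depend on scaling. With libraries scaled to a common median, 33 members were called higher and 2 lower (all genes 9.1% higher and 19.6% in all), and the medians were 0.36 over members and 0.028 over all genes. After quantile normalization 22 were called higher and 3 lower (9.3% and 19.7%), with medians of 0.23 and 0.017.

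Rps14, a small subunit gene whose human counterpart lies in the region deleted in the 5q- syndrome, had the largest increase in number 2 and was chosen after its values were seen. It stood at 429 and 1652 FPKM in the WT libraries and 422 and 1787 in the KI libraries, so that number 2 was 3.85 times number 1 in WT and 4.24 times in KI. The log2 difference was 2.01 with SE 0.082 and an adjusted p of 0.000744 in limma. KI and WT, in contrast, were near level within each number.

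Rpl19 went the other way, with a log2 difference of -2.05, SE 0.25 and an adjusted p of 0.00405 in limma, and it was the only member called lower. Its FPKM in number 2 was 0.189 times that of number 1 in WT and 0.298 times in KI. Large gains in number 2 were also seen for Rpl34 (155 and 346 FPKM in WT and 141 and 380 in KI) and Rps3 (352 and 767 FPKM in WT and 309 and 805 in KI). Rps10, with the long run of pyrimidines shown above, stood at 444 and 928 FPKM in WT and 420 and 959 in KI, a log2 difference of 1.13, and Rpl26, with no run, had 1.34. Rpl23 (log2 difference -0.033), Rps20 (0.162) and Rps21 (0.209) were not called. After quantile normalization Rpl23 was called lower.

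**Figure D4:**
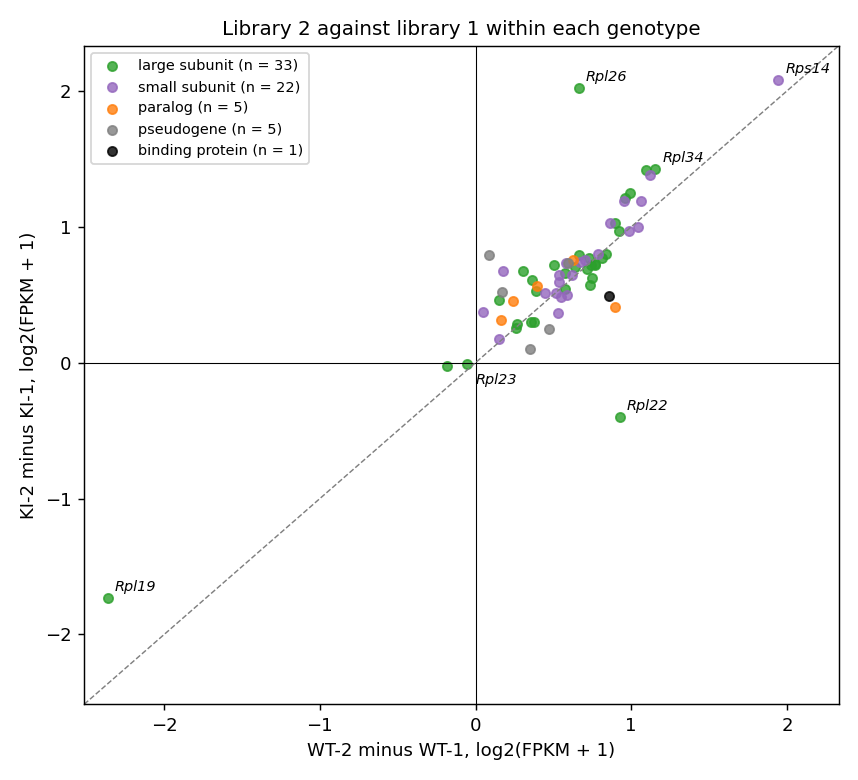
Libraries numbered 2 minus libraries numbered 1 on the log2(FPKM + 1) scale in WT (x axis) and in KI (y axis), 1 point per ribosomal protein gene, with the line of equality dashed. Most points lie along the line in the upper right, Rps14 at its top and Rpl19 at its foot, and Rpl26 and Rpl22 lie away from it.

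The 2 minus 1 difference of a member in WT and its difference in KI had a Pearson correlation of 0.816 over the 66 members, as a description over genes measured in the same libraries. With the length of the highest transcript its Spearman correlation was -0.0928 over 64 members with a length, and with mean FPKM it was 0.188. By start window, the median log2 difference was 0.636 over 22 canonical genes with a run in their start window and 0.715 over 20 without.

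Marker genes of neutrophils and B cells differed with the library number. The 5 listed neutrophil markers summed to 38.0 and 5.19 FPKM in the WT libraries and 87.7 and 3.73 in the KI libraries, and all 4 that entered the test were called lower in number 2, against 4.6% of all genes. The 6 B cell markers summed to 23.5 and 51.2 FPKM in WT and 26.9 and 81.6 in KI, and 5 were called higher in number 2, against 35.6% of all genes. The 7 genes of the LSK gate and of stem cells, Kit and Ly6a (Sca-1) among them, were all detected. They summed to 669 and 919 FPKM in WT and 663 and 861 in KI, and 6 were called higher in number 2, against 35.6% of all genes. Erythroid markers summed to 8.88 and 8.95 FPKM in WT and 26.7 and 11.8 in KI, both KI values above both WT values, with 0 called by number. Of the 2 erythroid markers that entered the test, 1 was higher in KI in both numbers and 1 moved opposite ways. Their median KI minus WT difference was 1.02 in number 1 and 0.143 in number 2. T cell markers summed to 9.19 and 12.6 FPKM in WT and 9.67 and 12.7 in KI. The median log2 fold change of KI against WT was 0.58 over the 2 erythroid, 0.56 over the 4 neutrophil and 0.50 over the 5 B cell markers that entered the test, and 0 of these were called. It was 0.14 over the 2 T cell markers tested and -0.146 over the 7 genes of the LSK gate and of stem cells, also with 0 called. The neutrophil median was 1.28 within number 1 and -0.155 within number 2. No marker sum was at 0, and their part in the results on ribosomal protein genes was not tested.

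In the authors' deposited table, which tests each transcript on normalized log2 values, 3 of 18691 transcripts had an adjusted p under 0.05 and 0 of the 78 member transcripts did. Of the members, 9 (11.5%) had an unadjusted p under 0.05, 6 of them higher in KI and 3 lower, against 21.6% of all transcripts. The deposited signed fold was -1.16 for Rpl22l1, 1.21 for the Rps24 transcript NM_207634, -1.28 for the Rpl30 transcript NM_001163485 and -1.19 for the Rpl35a transcript NM_001130484. These directions were those of the FPKM values within both numbers.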

How the data were processed

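RNA of LSK cells was sequenced on an Illumina HiSeq instrument. Per the submitters' processing notes, the tools were TopHat and Cufflinks and the build mm10 (GRCm38), with no version given. For each RefSeq transcript the authors deposited FPKM of each library, normalized log2 values made by the authors by a method not stated, and their comparison of KI with WT as a signed fold, a test score, p-values and adjusted p-values. The authors' comparison was used only where named. Depth is unknown, so no counting interval is given.

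FPKM was summed per symbol, since rows were transcripts and gene rows had been assumed when the design was written. Genes with a mean of at least 1 over the 4 libraries were tested as log2(FPKM + 1) (changes of low genes come out too small on this scale) with limma 3.58.1 in R 4.3.3 (trend, two-sided, Benjamini-Hochberg over all genes at 0.05). The script was tested on simulated data. 0 columns of per-sample values were left unused. Sequences came from RefSeq (GRCm38.p6) and GENCODE vM21.

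Members and lists were chosen with earlier results of these data known. Named were the 8 members per direction with the smallest unadjusted p, the 5 with the highest mean, the stalk and 5S genes, up to 4 paralogs, pseudogenes and Diamond-Blackfan anemia genes with the smallest p, and 2 per other translation list, cut from up to 4. Rps14, Rps27l, the single transcripts and the genes named for the library number or for groups apart were added after seeing values. Values of some members are not reported here, although counts and medians include them. Alternatives were the replicate block, another pseudocount, no filter, other scalings, coding transcripts only, canonical genes only and leaving out each library. A further one used the authors' log2 values, with each gene taken as its transcript with the highest mean FPKM.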

Additional observations from a re-analysis of the deposited data

How the results depend on the processing

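The count of 0 members called between KI and WT was the same under every alternative run: a pseudocount of 0.1, no filter, median and quantile scaling, coding transcripts only, the authors' log2 values, canonical genes only, the replicate block and each library left out. Over all genes, limma called 0 genes under the first 6 of these, 1 with the block, 7 without WT-1, 37 without WT-2, 12 without KI-1 and 7 without KI-2, where the lone library of a genotype is assumed to vary like the others. Libraries of one number deviated together from their group means (Pearson 0.691 over 11083 genes), and with only 2 pairs this is a hint from the data, not the design. With the replicate block, 4 members had an unadjusted p under 0.05 against 7.1% of all genes: Rpl22l1, Rpl30 and Rpl31-ps12 lower and Rpl19 higher, each with an adjusted p of 0.678, and the Rps24 transcript NM_207634 had an adjusted p of 0.866. The median log2 fold change ran from -0.334 to 0.330 on leaving out a library. The difference between subunit medians ran from -0.029 to 0.020, and it was -0.031 in number 2 alone. The count called between numbers was 35 with median scaling and 25 with quantile scaling, and ran from 38 to 58 on leaving out a library. The cause of these shifts was not tested.

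Of 40 named genes, 5 changed sign under another setting. With quantile scaling Rps3a1 gave 0.012. The authors' log2 values were taken from the transcript of each gene with the highest mean FPKM, not from a sum over transcripts. With them Rps24 gave -0.074, Rpl41 0.0079, Rpl5 0.00094 and Akt1s1 0.33. For Rps24 that transcript was NM_011297, so its change of sign sets 1 transcript against the whole gene. The deposited signed fold of NM_207634 was 1.21. On leaving out a library, 30 changed sign, with log2 fold changes from -0.70 to 0.20 for Rps4l, -1.36 to 0.66 for Rpl26, -0.40 to 0.12 for Rps15a-ps4, -0.53 to 0.15 for Rps29, -0.66 to 1.70 for Rpl19, -0.24 to 0.68 for Rpl22, -0.16 to 0.36 for Rps15a, -0.031 to 0.25 for Rpl29, -0.14 to 0.39 for Rps4x, -0.34 to 0.52 for Rps19bp1, -0.31 to 0.50 for Rpl37. The same range was -0.16 to 0.29 for Rpl36al, -0.24 to 0.31 for Rps24, -0.31 to 0.30 for Rpl41, -0.31 to 0.29 for Rps3a1, -0.30 to 0.47 for Rplp0, -0.36 to 0.48 for Rplp1, -0.36 to 0.40 for Rpl12, -0.46 to 0.33 for Rpl5, -0.34 to 0.42 for Rpl7l1. It was -0.36 to 0.12 for Rps15a-ps6, -0.76 to 0.43 for Rps27, -0.21 to 0.32 for Rpl27, -0.19 to 0.24 for Rps27a, -0.46 to 0.50 for Fau, -0.15 to 0.34 for Eif5a, -0.25 to 0.52 for Eif3f, -0.092 to 0.80 for Eif6, -0.077 to 0.55 for Grwd1 and -0.997 to 1.08 for Rps14.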

Other observations

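Other genes of translation, chosen with earlier results known, also gave 0 calls between KI and WT in limma at an adjusted p under 0.05, with 0 of each list below that bound unadjusted as well. The ubiquitin-fusion gene Rps27a stood at 1107 and 1442 FPKM in WT and 1104 and 1488 in KI, and Fau, which encodes a small subunit protein fused to a ubiquitin-like one, at 503 and 976 FPKM in WT and 510 and 993 in KI. Of 30 initiation factor genes, 16 were higher in KI in both numbers and 4 lower (all genes 28.7% and 25.5%), with a median log2 fold change of 0.061. Among them Eif6, which keeps the large subunit from joining early, stood at 22.2 and 42.0 FPKM in WT and 31.7 and 48.7 in KI, and the helicase gene Eif4a2 at 224 and 165 FPKM in WT and 172 and 155 in KI. The 7 genes listed with the elongation factors had a median of 0.026, although Eef1e1 and Eef2k in this list do not encode such factors. Eef1e1 stood at 30.9 and 36.6 FPKM in WT and 36.0 and 42.9 in KI, and Eif5a at 517 and 638 FPKM in WT and 516 and 725 in KI.

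The 11 other TOP mRNAs had a median log2 fold change of 0.017, with Vim at 383 and 298 FPKM in WT and 270 and 297 in KI and Eif3f at 208 and 354 FPKM in WT and 249 and 358 in KI. Of the 11, 6 were called higher in number 2 (all genes 35.6%) and 2 lower (all genes 4.6%). Npm1, named after its values were seen, was 1 of the 2 called lower (log2 difference -0.49, adjusted p of 0.00701 in limma). The 16 genes that regulate TOP translation had a median of -0.011, with 3 higher and 7 lower in KI in both numbers (all genes 28.7% and 25.5%). The 2 with the smallest unadjusted p encode inhibitors of mTORC1, Akt1s1 (14.7 and 17.5 FPKM in WT and 11.5 and 15.04 in KI) and Deptor (5.39 and 5.98 FPKM in WT and 4.79 and 4.46 in KI). Both were lower in KI in both numbers, but with the authors' log2 values of its highest transcript Akt1s1 turned to 0.33. The 6 genes for dedicated ribosomal protein chaperones had a median of 0.062, with Grwd1 at 9.50 and 15.2 FPKM in WT and 11.7 and 17.5 in KI and Bccip at 52.0 and 55.4 FPKM in WT and 61.1 and 56.1 in KI. The 74 genes for mitochondrial ribosomal proteins had a median of 0.037, with 23 higher and 15 lower in both numbers (all genes 28.7% and 25.5%), and 52 were called higher in libraries numbered 2 (all genes 35.6%).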
